A study of Mus musculus with 10 samples.

Results

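Snai1, Snai2, Twist1, Twist2, Zeb1, Zeb2 and Prrx1 are transcription factors known for driving epithelial cells towards a mesenchymal state. They were chosen by name, as the genes whose probe sets the array annotation assigns to a single one of these symbols. The 7 factors are 7 of 12394 genes measured. They had 11 probe sets, 4 of them for Prrx1, 2 for Zeb1 and 1 for each of the others, and a gene's main value is that of its brightest probe set by mean.

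In the epithelial-mesenchymal transition, a cell loses the junctions that tie it to its neighbours and takes on the shape, matrix and motility of a mesenchymal cell. The Snail and Zeb proteins bind E-box sequences at the promoters of junction genes such as Cdh1, which encodes E-cadherin, and repress them, while Twist and Prrx proteins act mainly as regulators of mesenchymal lineages. The same factors are part of the normal make-up of fibroblasts, Snai2 is also known from basal mammary epithelium, and Zeb2 from macrophages and other leukocytes.

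The study profiled cells sorted from mammary tissue of FVB/N mice, with RNA extracted at once after the sort. CAF are fibroblasts from tumours (3 arrays), CSC are the tumour cells labelled as cancer stem cells (2 arrays), and TEC are a further population from tumours that the labels do not spell out (2 arrays). All of these tumours came from mice with the genotype label WAPCre-DNbcatn;HGF, called Wnt-Met tumours by the submitters. COF are fibroblasts from control mammary glands with the genotype label WT (3 arrays). The WAP promoter that names the Cre is active in milk-secreting epithelium, and the genotype differs between CAF and COF together with the tumour, so that these cannot be told apart. On the TEC samples a second label field reads TEFs. Gates and ages are not given in the sources used here, nor is it said whether the arrays of a group stem from different mice. The p-values therefore cover the spread between these samples, which may be technical.

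The markers matched the fibroblast labels and fitted the cancer stem cell label only in part. The log2 of the summed linear level of 16 fibroblast markers lay at 17.47 to 17.50 on CAF arrays and at 17.42 to 17.46 on COF arrays, against 14.13 to 14.36 in CSC. On the TEC arrays it was 14.37 for replicate 1 and 16.43 for replicate 2, and Pdgfra, a fibroblast receptor, had log2 values of 7.02 and 9.80 there. The sum of 16 pan-epithelial markers was 16.18 to 16.35 in CSC and 13.81 to 14.32 in TEC. The sum of 12 leukocyte markers was 14.11 to 14.64 in CSC and 16.36 to 16.76 in TEC, and that of 17 macrophage markers was 15.93 to 16.12 in CSC and 16.32 to 16.45 in TEC. Ptprc, the pan-leukocyte gene for CD45, had log2 values of 13.38 and 13.09 in TEC and of 11.36 and 10.61 in CSC, so that neither population lacked leukocyte transcript. In CAF the leukocyte sum was 10.28 to 11.43 and in COF 8.96 to 9.52. CSC and TEC are called tumour cells below only for short, as both were sorted from tumours. Since the labels do not spell TEC out, that name does not say which cells TEC holds. In sorted bulk samples, fewer cells of a type and less RNA per cell cannot be told apart.

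The E-box form CACCTG is the site that Snail and Zeb proteins are known for, and promoter sequences from RefSeq (GRCm38.p6) were searched for it on both strands, as CACCTG or CAGGTG. It was present in the 300-base window around the start of 11 of 12 matched genes on a list of epithelial genes known to be repressed in the transition, which is 91.7%. Over all 27025 genes of the promoter table, which includes noncoding genes, the share was 22.6%, and on a list of mesenchymal genes it was 1 of 15 genes, or 6.67%. Of the 7 factors, 5 matched the table, with 8 promoters in all, and only Snai1 held the site. The general E-box CANNTG, which contains the CACCTG form, was present in 72.3% of all promoters and in 1 of the 8 promoters of the factors. Those letters were looked for in these windows alone, and a match describes letters only. Epcam, an epithelial adhesion gene measured below, is shown as an example with 2 sites, and Snai1 because its protein is known from human cells to act on its own promoter. Both stretches are the 250 bases before the start on the plus strand, with the sites in capitals.
Snai1, chr2:167537945-167538194: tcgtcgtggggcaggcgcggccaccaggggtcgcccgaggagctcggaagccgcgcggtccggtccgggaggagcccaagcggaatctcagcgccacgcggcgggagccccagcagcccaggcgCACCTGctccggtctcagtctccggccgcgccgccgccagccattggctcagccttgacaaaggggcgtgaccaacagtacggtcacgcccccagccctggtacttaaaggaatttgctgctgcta
Epcam, chr17:87635729-87635978: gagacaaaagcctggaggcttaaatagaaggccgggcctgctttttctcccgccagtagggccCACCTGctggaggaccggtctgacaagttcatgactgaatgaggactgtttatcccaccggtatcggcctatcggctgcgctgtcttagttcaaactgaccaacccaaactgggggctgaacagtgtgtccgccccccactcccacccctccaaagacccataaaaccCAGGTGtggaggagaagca
The Snai1 site begins 126 bases before the start, and those of Epcam begin 187 and 19 bases before it.

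All values below are the authors' log2 values after RMA, a method that makes arrays comparable by background correction, quantile normalization and probe summary. A difference of 1 is a doubling, and the lower quartile of all probe sets on an array lay between 5.05 and 5.26, which gives a sense of a dim signal. Levels of different probe sets cannot be ranked against each other, since probes differ in brightness. Differences were tested with limma over all 10 arrays, with Benjamini-Hochberg adjustment across the 12394 genes and a threshold of 0.05 on the adjusted p.

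Snai1 and Snai2 encode the zinc-finger repressors Snail and Slug. Snai1 had log2 values of 6.37, 6.53 and 7.05 on the CAF arrays, against 6.99, 7.23 and 6.93 on the COF arrays. It had 4.91 and 5.14 in CSC, against 6.17 and 5.81 in TEC. The fibroblast groups overlapped through CAF replicate 3, and CSC lay below all other arrays. Snai2 had 7.27, 7.49 and 7.56 in CAF, against 7.48, 7.74 and 7.57 in COF. It had 8.06 and 7.17 in CSC, against 4.67 and 6.55 in TEC. Snai2 was thus the only factor of the 7 not lower in CSC than in the fibroblasts, with 1 CSC array above and 1 below all fibroblast arrays, and it was lowest on both TEC arrays.

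Twist1 and Twist2 encode basic helix-loop-helix proteins of mesoderm and dermis. Twist1 had log2 values of 9.81, 9.97 and 10.16 in CAF, against 10.83, 10.62 and 10.72 in COF. It had 5.01 and 4.82 in CSC, against 5.90 and 7.77 in TEC. On both CSC arrays Twist1 was under the lower quartile of all probe sets. Twist2 followed the same order, with 9.41, 9.54 and 9.95 in CAF, against 10.29, 10.58 and 10.23 in COF. It had 5.65 and 5.17 in CSC, against 5.65 and 7.06 in TEC. All CAF arrays lay below all COF arrays for both genes, and the lower TEC array was close to CSC for Twist2.

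Zeb1 and Zeb2 encode large repressors with zinc fingers and a homeodomain. Zeb1 had log2 values of 9.34, 9.23 and 9.22 in CAF, against 10.13, 9.75 and 10.08 in COF. It had 5.76 and 5.38 in CSC, against 8.43 and 8.44 in TEC, so that all 4 groups stood apart. Zeb2 had 10.29, 10.29 and 10.09 in CAF, against 11.16, 10.53 and 10.92 in COF. It had 8.94 and 8.58 in CSC, against 10.41 and 10.13 in TEC. TEC and CAF arrays thus overlapped for Zeb2, and CSC arrays lay below all others for both genes. The second Zeb1 probe set read 3.23 to 3.59 on all 10 arrays, under the lower quartile of each, so it gave only a dim signal.

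Prrx1 encodes a paired-related homeodomain protein of limb and craniofacial mesenchyme. It had log2 values of 11.37, 11.52 and 11.41 in CAF, against 10.68, 10.31 and 10.62 in COF. It had 6.15 and 6.07 in CSC, against 6.52 and 9.32 in TEC. Prrx1 was the only factor whose CAF arrays all lay above all COF arrays, and TEC replicate 2 lay far nearer to the fibroblasts than TEC replicate 1 did.

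**Figure D1:**
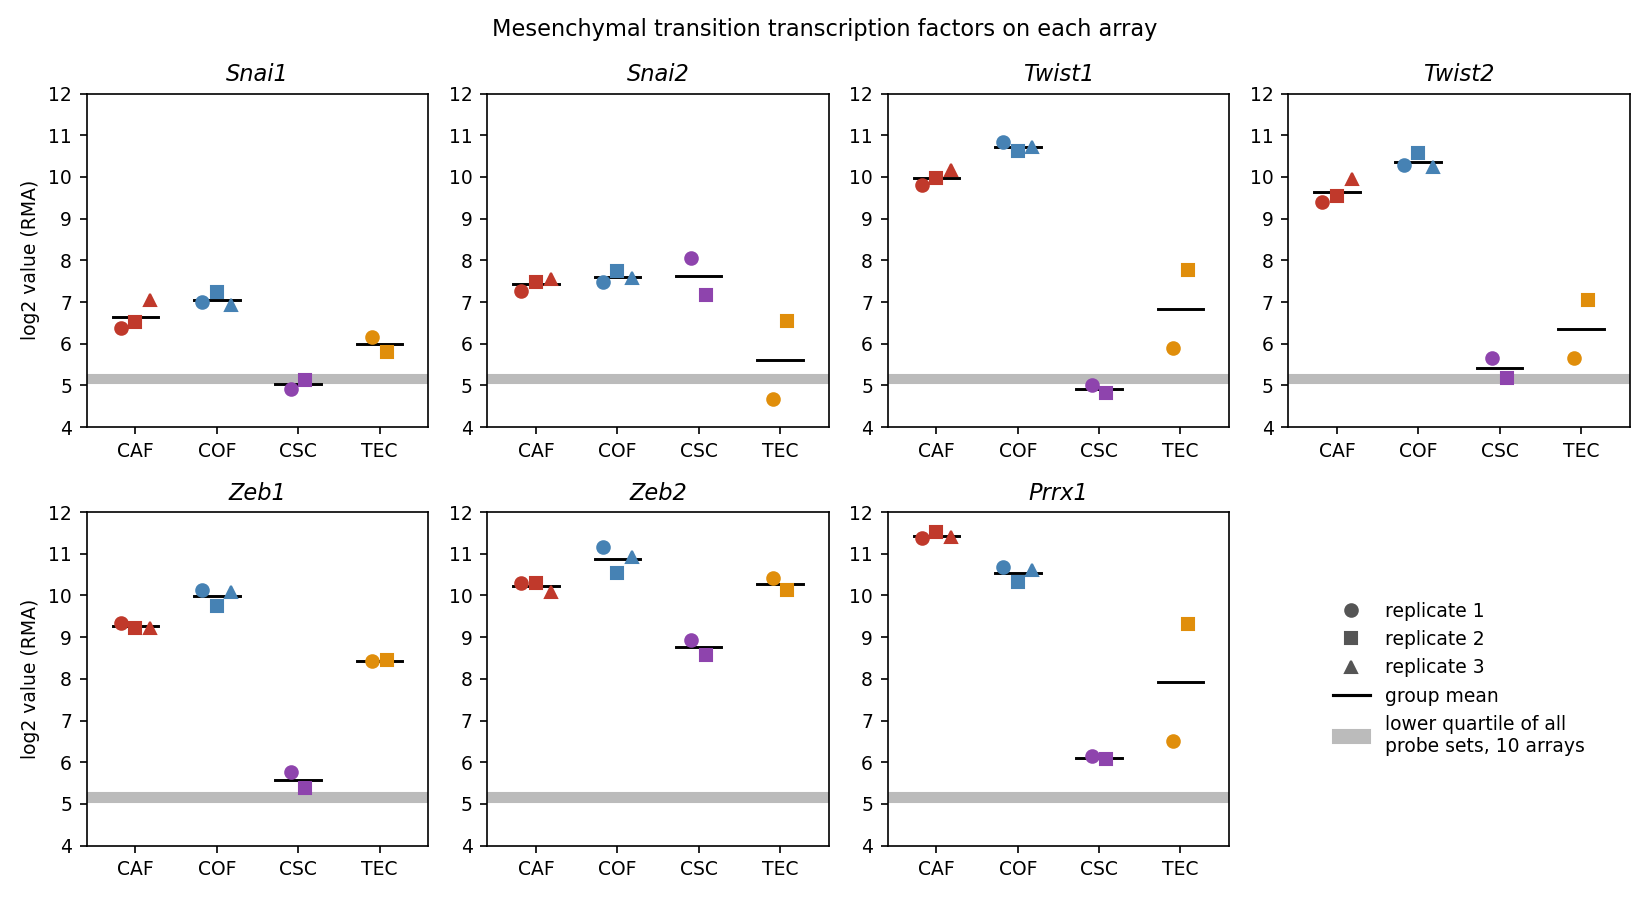
Log2 values (RMA, vertical axis) of the 7 factors, 1 panel a gene, with CAF, COF, CSC and TEC along the horizontal axis, a point for each array, a bar at each group mean and a grey band at the lower quartile of all probe sets. The fibroblast arrays lie above the CSC arrays for every factor except Snai2, where CSC has 8.06 and 7.17 on either side of the fibroblast values of 7.27 to 7.74, and the 2 TEC points lie far apart for Prrx1, at 6.52 and 9.32.

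CAF were set against COF to see what distinguishes tumour fibroblasts from those of the control gland. Zeb1 and Zeb2 were lower in CAF, and no factor passed as higher. Zeb1 averaged 9.26 ± 0.068 in CAF and 9.99 ± 0.20 in COF (SD, n = 3 each), a log2 difference of -0.72 ± 0.13 (SE) with a limma adjusted p of 0.00274, or 1.65-fold lower. Zeb2 averaged 10.22 ± 0.12 in CAF and 10.87 ± 0.32 in COF, a log2 difference of -0.65 ± 0.17 with a limma adjusted p of 0.0177, or 1.56-fold lower. The share of factors that passed, 2 of 7, was read against 34.8% of all genes, of which 16.7% were lower and 18.1% higher. The arrays of the groups did not overlap for 5 of the 7 factors, against 56.6% of all genes. The median difference of the 7 factors was -0.65, against 0.018 for all genes.

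The other 5 factors did not pass in the fit over all arrays. Twist1 differed by -0.75 ± 0.38 (limma adjusted p = 0.166), Twist2 by -0.73 ± 0.32 (0.115) and Prrx1 by 0.89 ± 0.55 (0.258), with the groups apart in each case. These standard errors pool the spread of all 4 groups, including the TEC arrays, which lay 1.41 to 2.80 apart for these genes. When only the 6 fibroblast arrays entered the fit, 5 of 7 factors passed, along with 45.9% of all genes. Twist1 then had a standard error of 0.11 (limma adjusted p = 0.00118), Twist2 of 0.16 (0.00741) and Prrx1 of 0.11 (0.000594), with the differences as above. Leaving out either TEC array from the fit over all arrays also gave 5 of 7, with 41.1% of all genes passing. Snai1 differed by -0.40 ± 0.18 (95% interval -0.81 to 0.021, limma adjusted p = 0.135) and passed without CAF replicate 3, at -0.60 and 0.0229. Snai2 differed by -0.16 ± 0.41, with an interval of -1.09 to 0.78. With only the fibroblast arrays its standard error was 0.11 and its interval -0.40 to 0.09 (limma adjusted p = 0.27), so it passed in neither fit. Zeb2 no longer passed without COF replicate 1 (-0.50, 0.0652), COF replicate 3 (-0.62, 0.0631) or CAF replicate 3 (-0.58, 0.0653).

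Markers of other cells also differed between these groups. Of the leukocyte markers 9 of 12 were higher in CAF, of the macrophage markers 9 of 17 and of the pan-epithelial markers 10 of 16. Of 16 fibroblast markers none was higher and 1 was lower in the fit over all arrays. With only the fibroblast arrays in the fit, 4 of them were higher and 4 lower. Over all genes 18.1% were higher and 16.7% lower over all arrays, and 24.5% and 21.4% in the fibroblast fit. Of 8 adipocyte markers 5 were lower in CAF and none was higher, with a median difference of -1.01, and of 12 endothelial markers 2 were lower. Of 8 pericyte markers 3 were higher and 1 lower, of 12 basal markers 4 were higher and of 12 lymphocyte markers 3 were higher. Ptprc had log2 values of 7.04, 7.35 and 8.88 in CAF, against 5.19, 6.57 and 5.78 in COF. The part of these cells in the differences of the factors was not tested.

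**Figure D2:**
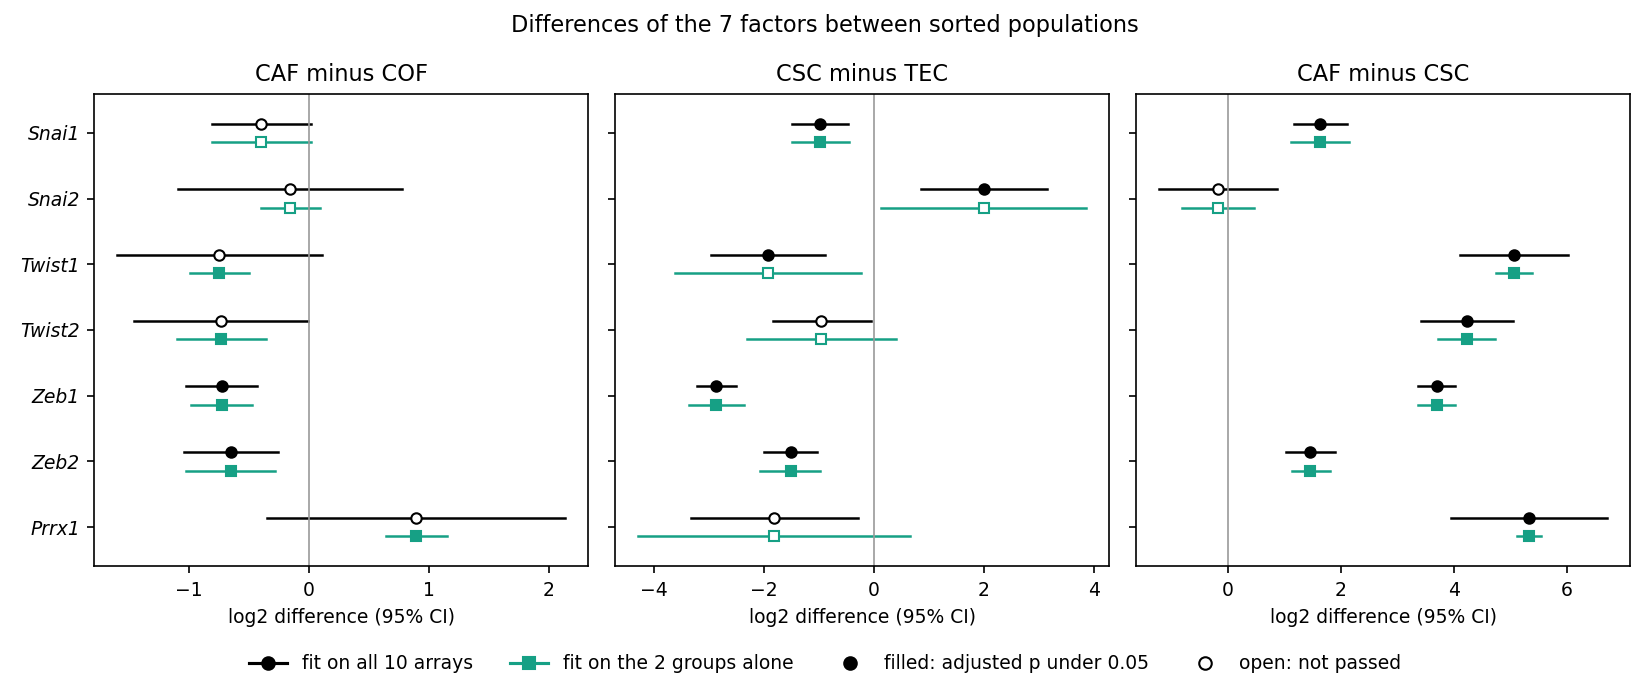
Log2 differences of the 7 factors (horizontal axis, with 95% confidence intervals) for 3 contrasts (CAF minus COF at left, CSC minus TEC, CAF minus CSC at right), from the fit over all 10 arrays (circles) and from a fit on the 2 groups alone (squares), filled where the adjusted p is under 0.05. In the comparison of CAF with COF the interval of Prrx1 spans -0.35 to 2.14 over all arrays and is far narrower in the fibroblast fit.

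CSC were set against TEC to see how the labelled stem cells differ from other cells of the tumour. Snai1, Twist1, Zeb1 and Zeb2 were lower in CSC and Snai2 was higher. Zeb1 averaged 5.57 ± 0.27 in CSC and 8.43 ± 0.003 in TEC (SD, n = 2 each), a log2 difference of -2.86 ± 0.16 with a limma adjusted p of 6.23e-06, or 7.27-fold lower. Zeb2 differed by -1.51 ± 0.21 (limma adjusted p = 0.000405, 2.85-fold lower) and Snai1 by -0.97 ± 0.23 (0.00676). Snai2 averaged 7.61 ± 0.63 in CSC and 5.61 ± 1.33 in TEC, a difference of 2.0 ± 0.51 with a limma adjusted p of 0.0102, or 4.01-fold higher. Of the 7 factors 5 passed, against 46.7% of all genes, of which 20.1% were lower and 26.6% higher. For all 7 the arrays of the groups did not overlap, against 68.7% of all genes.

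The values of Snai2, the Twist genes and Prrx1 turned on single arrays. An array left out here leaves 1 array in its group, so such a difference is given by its size, without a p-value. The counts of passing factors and genes without a TEC array take no spread from TEC, so no conclusion is drawn from them. Twist1 differed by -1.92 ± 0.46 (limma adjusted p = 0.00778, 3.78-fold lower), with -2.86 without TEC replicate 1 and -0.98 without TEC replicate 2. Snai2 was 1.06 higher without TEC replicate 1, 2.95 without TEC replicate 2 and 1.55 without CSC replicate 1. Twist2 (-0.95 ± 0.39, interval -1.84 to -0.055, limma adjusted p = 0.0772) and Prrx1 (-1.81 ± 0.67, interval -3.33 to -0.29, 0.0528) did not pass over all arrays. Without TEC replicate 2 they differed by only -0.24 and -0.4, and without TEC replicate 1 by -1.65 and -3.21. In that fit 7 of 7 factors passed, with 43.2% of all genes. Without TEC replicate 2 it was 5 of 7, with 48.7% of all genes. A fit on CSC and TEC alone, in which 24.3% of all genes passed, left 3 of 7, namely Snai1 (limma adjusted p = 0.0327), Zeb1 (0.0113) and Zeb2 (0.0156).

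The 2 TEC arrays differed for some factors and not for others. TEC replicate 2 exceeded TEC replicate 1 by 2.80 on the log2 scale for Prrx1, a gap that 0.347% of all genes surpassed. The gap was 1.89 for Snai2 (2.09% of genes had a larger one), 1.87 for Twist1 (2.15%) and 1.41 for Twist2 (3.37%). For Zeb1 it was 0.0042, for Zeb2 -0.28 and for Snai1 -0.36, so the Zeb genes and Snai1 differed from the other 4 in this. The summed fibroblast markers were 2.06 higher on TEC replicate 2, the pan-epithelial markers 0.51 higher and the basal markers 0.64 higher, whereas the leukocyte markers were 0.40 lower. Within CSC, Snai2 was 0.90 higher on replicate 1, and the other gaps lay between -0.23 and 0.48.

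CSC and TEC also differed in markers of other cells. All 12 leukocyte markers were lower in CSC than in TEC, and 16 of 16 pan-epithelial and 8 of 12 basal markers were higher. The macrophage markers went both ways, with 5 of 17 higher and 7 lower in CSC, and 9 of 12 lymphocyte markers were lower. Over all genes 26.6% were higher and 20.1% lower. Krt14, a keratin of basal epithelium, had log2 values of 12.14 and 11.60 in CSC, against 9.36 and 10.27 in TEC. The part of fibroblast or leukocyte transcript in the TEC levels of the factors was not tested.

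**Figure D3:**
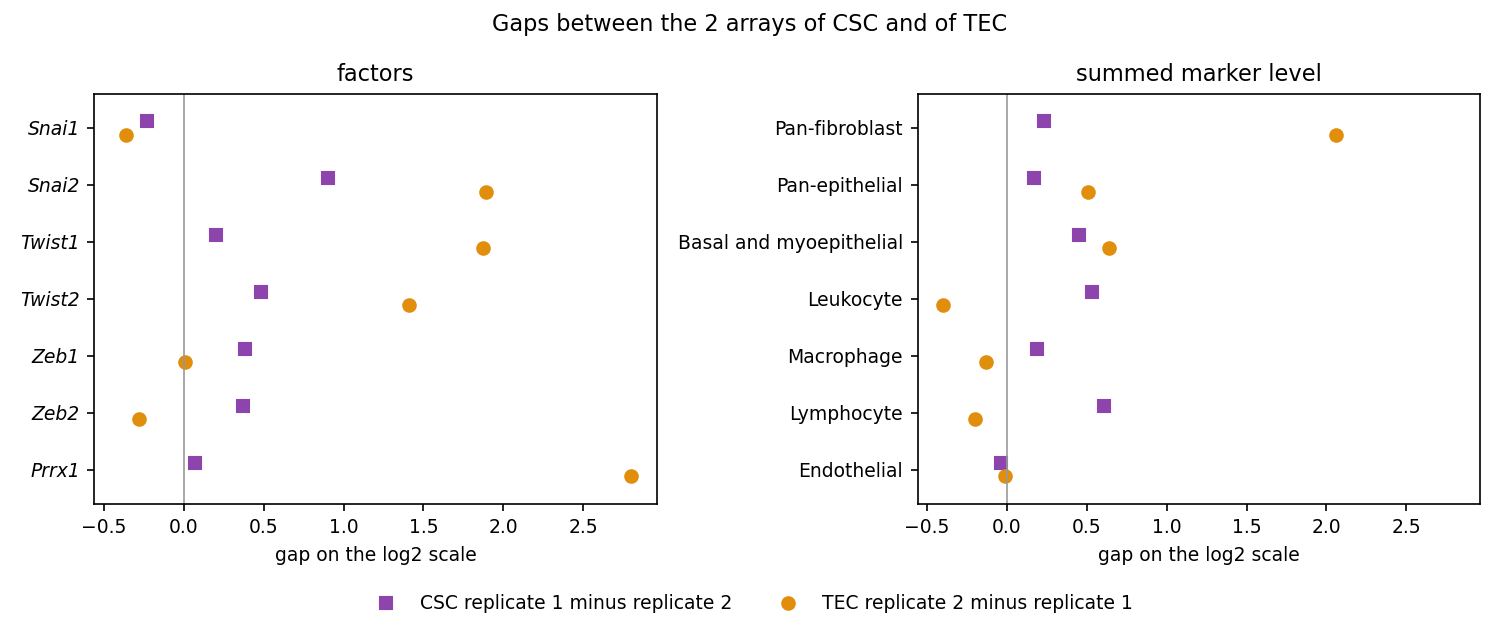
Gaps between the 2 arrays of a group on the log2 scale (horizontal axis), for the 7 factors at left and for the summed level of marker lists at right, as CSC replicate 1 minus 2 (squares) and TEC replicate 2 minus 1 (circles). The TEC gap is 2.80 for Prrx1 and 2.06 for the fibroblast markers, and 0.0042 for Zeb1.

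Between CAF and CSC, the partners whose exchange the study set out to examine, 6 of the 7 factors were higher in CAF. Prrx1 averaged 11.43 ± 0.076 in CAF and 6.11 ± 0.051 in CSC (SD, n = 3 and 2), a log2 difference of 5.32 ± 0.61 with a limma adjusted p of 6.33e-05, or 40.1-fold. Twist1 was 33.4-fold higher (5.06 ± 0.42, limma adjusted p = 8.68e-06), Twist2 18.7-fold (4.23 ± 0.36, 1e-05) and Zeb1 12.9-fold (3.69 ± 0.15, 1.17e-07). Snai1 was 3.10-fold higher (1.63 ± 0.21, limma adjusted p = 0.000112) and Zeb2 2.76-fold (1.46 ± 0.19, 0.000144). Over all genes 66.5% passed, 33.4% higher and 33.1% lower, and the groups did not overlap for 6 of 7 factors, against 82% of genes. The median of the 7 was 3.69, against 0.015 for all genes.

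Twist1 was under the lower quartile of all probe sets on both CSC arrays and Snai1 on CSC replicate 1. Their folds against CSC, between CSC and TEC as well, are those of the measured signals and may understate the difference in transcript. Snai2 was under the lower quartile on TEC replicate 1, at 4.67, so the same limit holds for its differences from TEC. Between CAF and CSC, Snai2 differed by -0.17 ± 0.46 (interval -1.22 to 0.87, limma adjusted p = 0.751). It was the factor that did not pass, and the sign turned to 0.27 without CSC replicate 1, which leaves 1 CSC array.

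With both fibroblast groups set against both tumour cell groups, all 7 factors were higher in the fibroblasts, against 40.1% of all genes higher, 34.6% lower and 74.7% passing in either direction. The log2 differences were 4.47 ± 0.30 for Twist1 (limma adjusted p = 1.1e-06), 4.12 ± 0.25 for Twist2 (7.01e-07), 3.97 ± 0.43 for Prrx1 (2.74e-05) and 2.62 ± 0.10 for Zeb1 (4.2e-08). For Snai1 (1.35 ± 0.15, limma adjusted p = 2.58e-05) the arrays were apart as well, which made 5 of 7, against 45.7% of all genes. Zeb2 (1.03 ± 0.14, limma adjusted p = 9.86e-05) and Snai2 (0.91 ± 0.33, 0.0307) overlapped. Snai2 was 0.43 without TEC replicate 1, 1.38 without TEC replicate 2 and 0.68 without CSC replicate 2, each leaving 1 array in a group. Among the fibroblast arrays, it failed the threshold when COF replicate 2, COF replicate 3, CAF replicate 2 or CAF replicate 3 was left out. The limma adjusted p-values were then 0.0528 to 0.0597. Against CSC alone, Snai2 differed by -0.17 in CAF and by -0.018 in COF, and neither passed.

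The order of the group means was COF, CAF, TEC and CSC from high to low for Snai1, Twist1, Twist2 and Zeb1. Neighbours in that order all differed for Zeb1, while for Snai1, Twist1 and Twist2 CAF and COF did not pass in the fit over all arrays. Twist2 did not pass between CSC and TEC either. Prrx1 led in CAF, with COF next. On its main probe set neither the step between CAF and COF nor that between CSC and TEC passed. Zeb2 ran COF, TEC, CAF and CSC, and CAF minus TEC was -0.049 ± 0.19 (limma adjusted p = 0.834). Snai2 ran CSC, COF, CAF and TEC. The first 3 did not pass against each other, with wide intervals such as -1.07 to 1.03 for COF minus CSC. TEC was lower, by 1.83 against CAF (limma adjusted p = 0.00654). Over the 7 factors and all pairs of groups, 32 of 42 differences passed, and 30 to 32 with a fibroblast array left out. Over all genes 67.5% passed in CAF minus TEC, 69.5% in COF minus CSC and 68.2% in COF minus TEC, where 6, 6 and 7 of the factors did.

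The 4 probe sets of Prrx1 gave the same order of the fibroblast groups. Beside the main set 1425528_at, the set 1425526_a_at read 10.84, 11.04 and 11.21 in CAF, against 10.52, 10.40 and 10.44 in COF. The set 1425527_at, of lower signal, read 7.38, 7.57 and 7.22 in CAF, against 6.77, 6.59 and 6.79 in COF. The set 1432129_a_at read 8.75, 8.91 and 8.89 in CAF, against 8.46, 8.12 and 8.46 in COF. All CAF arrays lay above all COF arrays on every set. Of these 3, in a fit over all probe sets, 1425527_at passed at 0.67 ± 0.12 (limma adjusted p = 0.00292), while 1425526_a_at (0.58 ± 0.55, 0.488) and 1432129_a_at (0.51 ± 0.37, 0.344) did not. Between CSC and TEC all 3 passed in that fit as lower in CSC, where 44.9% of all probe sets passed. The differences were -2.02 ± 0.68 on 1425526_a_at (limma adjusted p = 0.0363), -1.26 ± 0.45 on 1432129_a_at (0.0451) and -0.87 ± 0.15 on 1425527_at (0.0014). The main set did not pass there (limma adjusted p = 0.0518). In CSC, 1432129_a_at (4.13 and 3.95) and 1425527_at (4.82 and 4.50) were under the lower quartile of all probe sets on both arrays. So was 1432129_a_at on TEC replicate 1, which limits what these sets add. TEC replicate 2 exceeded replicate 1 on all 4 sets, with 9.16 and 6.34 on 1425526_a_at, 6.22 and 4.39 on 1432129_a_at, and 5.58 and 5.48 on 1425527_at, where the gap was small.

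**Figure D4:**
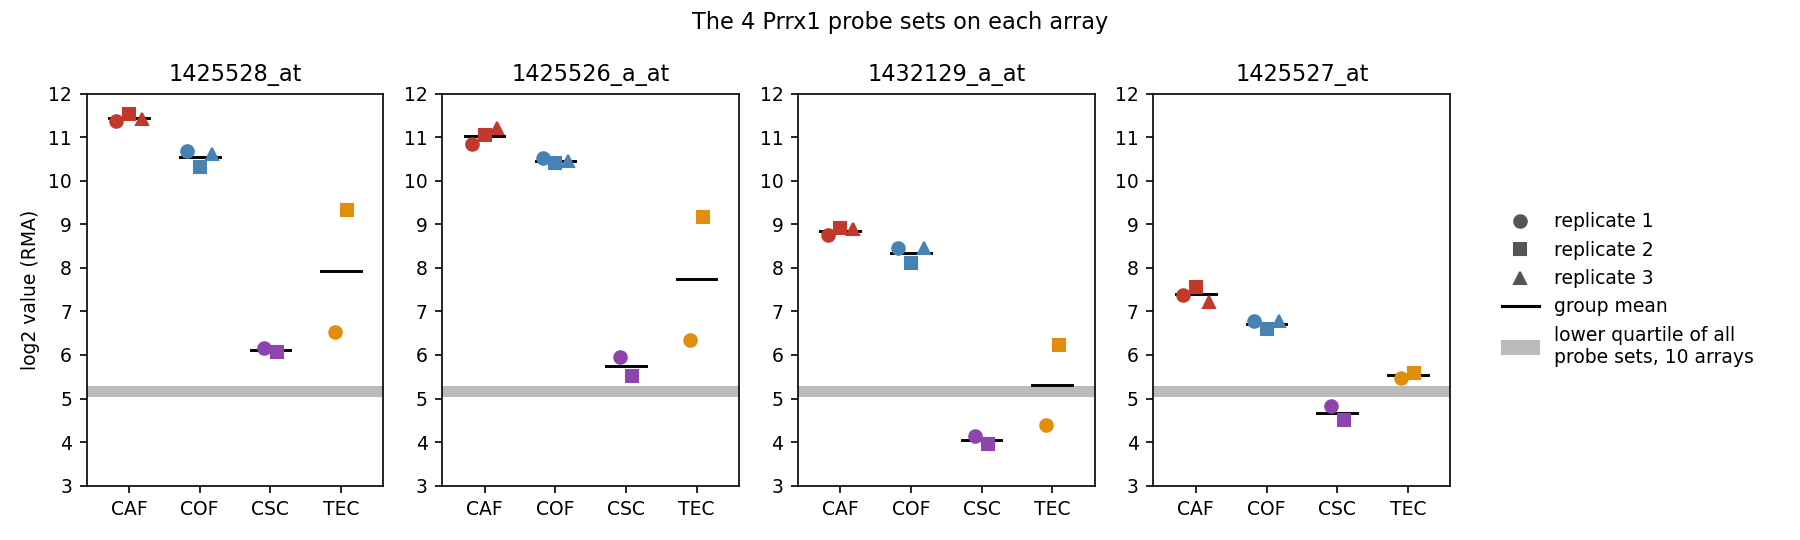
Log2 values (RMA, vertical axis) of the 4 Prrx1 probe sets, 1 panel a set, with CAF, COF, CSC and TEC along the horizontal axis, a point for each array, a bar at each group mean and a grey band at the lower quartile of all probe sets. On every set the CAF points lie above the COF points, and the TEC points are wide apart on 3 sets but not on 1425527_at, with 5.48 and 5.58.

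The paralogs Snai3 and Prrx2 stood at different levels. Snai3 read 4.50 to 5.27, under the lower quartile on 9 of 10 arrays. Prrx2, also a gene of mesenchyme, followed Prrx1, with 9.04, 9.11 and 9.05 in CAF, against 8.20, 8.78 and 8.34 in COF. CAF and COF did not overlap for Prrx2, yet it did not pass over all arrays (0.63 ± 0.35, limma adjusted p = 0.21). It was 3.65 ± 0.39 higher in CAF than in CSC (limma adjusted p = 3.99e-05).

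Across the 10 arrays, which share the 4 groups and the spread of TEC, the factors fell into those with many close companions and those with few. Twist1 and Twist2 correlated with each other at a Pearson r of 0.99, Zeb1 with Zeb2 at 0.96 and Twist1 with Prrx1 at 0.95, whereas Snai2 correlated with the other factors at -0.12 to 0.47. Of 12393 other genes, 723 reached an r of 0.95 or more with Twist2, 555 with Twist1, 389 with Prrx1, 90 with Zeb1, 46 with Zeb2, 31 with Snai1 and 7 with Snai2. The closest to Prrx1 were Abi3bp (r = 0.999), Cpxm1 (0.999) and Pkdcc (0.998). The closest to Twist1 were Srpx, Ccdc102a and Pcdh7 (0.997 each), and to Twist2 Spon2, Gem and Gm20362 (0.996 each). For Zeb1 they were Igfbp6 (0.998), Fyn (0.998) and Peli1 (0.994), and for Zeb2 Anxa3 (0.989), Rab21 (0.989) and Ascl3 (0.983). For Snai1 they were Ampd2 (0.987), Foxc2 (0.983) and Foxp3 (0.974), and for Snai2 Pard6g (0.982), Stau2 (0.966) and Tubb2a (0.961). These values describe 10 arrays in 4 groups and carry no test.

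The genes that the factors are known to repress and induce, and the proteins they work with, were described next to them. Between CAF and CSC, all 20 measured epithelial genes known to be repressed in the transition were lower in CAF, with a median difference of -3.55, and all 20 mesenchymal genes were higher, with a median of 3.5, against 0.015 for all genes. Both lists share genes with the cell type markers, Cdh1 and Epcam with the pan-epithelial ones and Col1a1 and Mmp2 with the fibroblast ones. Their counts are thus not separate from the markers, and the part of the factors in them was not tested. Cdh1 had log2 values of 6.25, 6.80 and 7.10 in CAF, against 12.53 and 12.45 in CSC, a difference of -5.77 ± 0.44 (limma adjusted p = 5.18e-06). Epcam, whose promoter is printed above, had 7.74, 8.14 and 8.23 in CAF, against 13.48 and 13.41 in CSC. Cdh2, which encodes N-cadherin, was 4.79 ± 0.49 higher in CAF and Vim, which encodes the filament protein vimentin, 1.86 ± 0.10 higher. Fn1, the gene of the matrix protein fibronectin, was 3.04 ± 0.23 higher. Of 12 epithelial regulators opposed to the transition 11 were lower in CAF, among them the splicing factor Esrp1 (-5.99 ± 0.19) and Grhl2 (-3.33 ± 0.099), a grainyhead factor, and only Klf4 was higher (1.60 ± 0.30). The other transcription factors of the transition were split, with 6 higher and 6 lower of 15. Tead1 was 1.71 ± 0.10 and Gsc 1.82 ± 0.15 higher, while Tead4 (-2.04 ± 0.14) and Foxq1 (-1.86 ± 0.16) were lower. Of the corepressor list, which also holds the kinase gene Lats2, 11 of 16 were lower in CAF, among them the histone methyltransferase gene Ezh2 (-1.52 ± 0.13). On that list 2 were higher, among them Lats2 (2.12 ± 0.18). The E proteins and Id genes had 4 higher and 2 lower of 9, with Tcf4 at 1.66 ± 0.18 and Id1 at -1.72 ± 0.22, and 6 higher without TEC replicate 2. The turnover genes had 2 higher and 1 lower of 7. These counts stand against 33.4% of all genes higher and 33.1% lower, a share that the counts of the other transcription factors and of the E proteins and Id genes lie near.

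Between CAF and COF the epithelial and mesenchymal lists had medians of 0.14 and 0.18. Cdh1 (1.85 ± 0.39, limma adjusted p = 0.0063) and Epcam (1.49 ± 0.31, 0.00526) were higher in CAF, with Cdh1 at 6.25, 6.80 and 7.10 in CAF, against 4.15, 5.83 and 4.64 in COF. Of the 20 epithelial genes 5 were higher and 2 lower. Of the 20 mesenchymal genes 3 were higher and 1 lower, with Cdh2 (2.50 ± 0.43), the matrix gene Tnc (3.18 ± 0.81) and S100a4 (1.64 ± 0.34) higher, and the collagen receptor gene Ddr2 lower (-1.22 ± 0.19). With only the fibroblast arrays in the fit, where 24.5% of all genes were higher and 21.4% lower, the mesenchymal counts were 9 and 4. In the fit over all arrays Vim differed by -0.025 and Fn1 by 0.27, neither of which passed there (limma adjusted p = 0.878 and 0.374). Of 15 other transcription factors Runx1 was higher, by 2.21 ± 0.12, and Gsc (-1.72 ± 0.13) and Tead1 (-0.43 ± 0.092) were lower. The fibroblast fit had 4 higher and 5 lower, and the fit without TEC replicate 2 had 3 and 3, with 8 and 2 mesenchymal genes.

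The lists of partners of the factors, of inhibitors of those partners and of turnover genes leaned lower in CAF than in COF. E proteins are the dimer partners of Twist, and Id proteins bind E proteins and block them. Of the 9 measured, 4 were lower and none higher, namely Tcf4 (-1.11 ± 0.16), Id1 (-1.22 ± 0.19), Id2 (-1.15 ± 0.18) and Id4 (-2.19 ± 0.36). Of 16 genes on the list of corepressors of Snail and Zeb 6 were lower and 2 higher, with the histone demethylase gene Kdm1a at -1.02 ± 0.096 and Ajuba at 0.94 ± 0.11. Of 7 genes for the turnover of Snail and Twist proteins 4 were lower and none higher, among them Fbxo11 (-1.33 ± 0.18) and Fbxw7 (-0.69 ± 0.09), both genes of ubiquitin ligase subunits. Over all genes 16.7% were lower and 18.1% higher. With only the fibroblast arrays in the fit, 6 E protein and Id genes were lower and none was higher.

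Between CSC and TEC, 19 of 20 epithelial genes and 10 of 12 epithelial regulators were higher in CSC, with medians of 2.14 and 1.99, against 0 for all genes. Grhl2 was 2.35 ± 0.11 higher and Esrp1 2.60 ± 0.21 higher. Cdh1 was 2.23 ± 0.48 higher (limma adjusted p = 0.00463). Of 20 mesenchymal genes 10 were lower and none higher, with a median of -1.37, among them Vim (-1.34 ± 0.11), Fn1 (-1.72 ± 0.26) and S100a4 (-3.16 ± 0.41). Without TEC replicate 2, the array with the higher fibroblast markers, the median was -0.28. With only CSC and TEC in the fit 4 of these genes were lower. Among the other transcription factors 6 of 15 were higher in CSC and 2 lower, with Sox9 (2.74 ± 0.28), Foxc1 (2.49 ± 0.33), Sox4 (2.36 ± 0.28) and Tead4 (1.54 ± 0.15) the higher ones named by the rule. Of the E proteins and Id genes 3 of 9 were higher and 1 lower, and of the corepressors 9 of 16 were higher and 2 lower. The turnover genes had 2 higher and 4 lower of 7. Over all genes 26.6% were higher and 20.1% lower. In the fit on CSC and TEC alone the E proteins and Id genes had 1 higher and none lower.

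**Figure D5:**
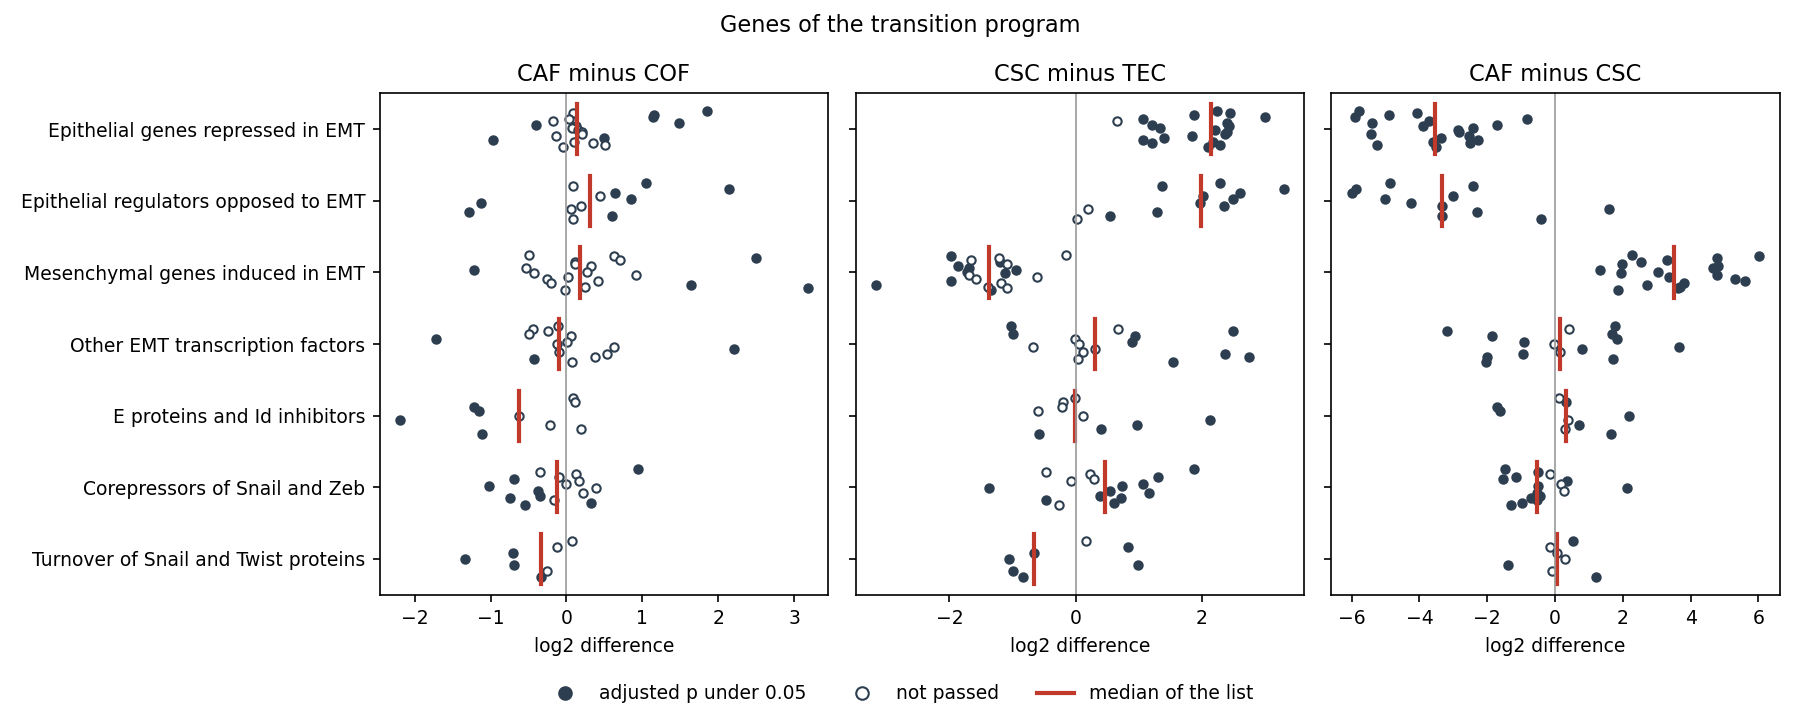
Log2 differences (horizontal axis) of each measured gene of 7 lists, for 3 contrasts (CAF minus COF at left, CSC minus TEC, CAF minus CSC at right), filled where the adjusted p is under 0.05, with a bar at the list's median. Epithelial genes have a median of -3.55 and mesenchymal genes of 3.5 in CAF minus CSC, against 0.14 and 0.18 in CAF minus COF.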

How the data were processed

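RNA of sorted mouse mammary cells was measured on 10 single-colour Affymetrix arrays, each labelled from 100 ng of RNA according to the labels. The deposited log2 values of 22690 probe sets were made by the authors with RMA, per the submitters' processing notes. Its version, and whether all arrays were normalized together, are not given in the sources used here. Deposited values were used as deposited, with array medians of 6.89 to 7.02. The number of arrays limits the precision.

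Probe sets with 1 gene symbol (20393) were kept, and those with several (691) or none (1606) left out. Each of 12394 genes took its probe set with the highest mean, and 12370 matched a RefSeq identifier. Group was the only term in lmFit and eBayes of limma 3.58.1 (R 4.3.3), with the spread pooled over all arrays. Tests were two-sided, and intervals are 95% confidence intervals. The pipeline was tested on simulated data.

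The 7 factors, the 17 gene lists (219 distinct genes, 200 measured) and the tests were chosen with earlier results of these data known. The text names the 7 factors, the 3 genes most correlated with each, up to 4 genes a list by smallest adjusted p, and fixed genes such as Cdh1, Epcam, Vim and Ptprc. Summed marker levels are the log2 of the sum of linear values. Alternatives varied the arrays in the fit, a replicate block, probe set choice, dim-gene filter (the lowest 30%), normalization, variance prior and threshold.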

Additional observations from a re-analysis of the deposited data

How the results depend on the processing

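The count of factors that passed between CAF and COF moved from 2 to 5 in a fit on the 2 groups alone and to 1 at an adjusted p under 0.01. With a fibroblast array left out it was 1 or 2. It was also 1 with the closest fibroblast arrays averaged into 1, a setting chosen after seeing the data, as were the list counts without TEC replicate 2 and on 2 groups. Of all genes 4309 passed there, against 2638 at the stricter threshold, 1805 with averaged arrays and 2980 to 4316 with a fibroblast array left out. Between CSC and TEC the fit on the 2 groups alone gave 3 factors in place of 5 and 3013 genes in place of 5786. In CAF minus CSC, Snai2 was -0.17, and 0.27 without CSC replicate 1, with a range of -0.62 to 0.27 over the arrays left out. Averaging all probe sets of Zeb1, 1 of them dim on every array, moved its difference to -0.43 in CAF minus COF, -1.46 in CSC minus TEC and 1.75 in CAF minus CSC, and each still passed. Prrx1 in CSC minus TEC passed with all its probe sets averaged (-1.49, limma adjusted p = 0.0266). It also passed there without the dim genes (0.0482) and with each array centred on its median (0.0402). Snai2 in fibroblasts minus tumour cells failed with averaged arrays (0.94, limma adjusted p = 0.0785).

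All groups share 2 replicate numbers. Deviations from the group mean correlated at -0.082 to 0.13 for same-numbered arrays and at -0.16 to 0.13 for others. In a group of 2 these deviations are mirror images of each other, so this cannot say whether the numbers pair the samples. With a replicate block 2, 5, 6 and 6 factors passed in CAF minus COF, CSC minus TEC, CAF minus CSC and fibroblasts minus tumour cells, and 3947, 5365, 7813 and 8782 genes. Groups of 2 and 3 arrays limit every value.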
